A study of Mus musculus with 29 samples.

Results

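Ion pumps and ion exchangers set the sodium, calcium, chloride and proton gradients of a neuron. Their genes were examined here in 29 single retinal ganglion cells (RGCs), the output neurons of the retina. The members were all genes whose symbol in the probe annotation starts with *Atp1a*, *Atp1b*, *Atp2a*, *Atp2b*, *Atp2c*, *Slc4a*, *Slc8a*, *Slc9a*, *Slc12a* or *Slc24a*. This rule gave 48 of the 18194 genes read by the array. Sorted by family, 5 members are named as sodium pump subunits and 16 move calcium. Another 8 belong to the cation-chloride cotransporter family, and 16 move bicarbonate or protons and so act on pH. The other 3, *Slc4a1ap*, *Slc9a3r1* and *Slc9a3r2*, share the letters of a family name but encode adaptor proteins and not transporters.

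All cells came from retinas of adult mice (C57BL/6 in the labels, C57BL/6J in the methods) with no transgene and no treatment, and each was classified by its spike responses to light before its soma was aspirated. There were 8 direction-selective (DS) cells (4 ON DS, 4 ON-OFF DS), 2 orientation-selective (OS) cells (ON vOS and ON hOS, for vertical and horizontal), and 9 alpha cells (2 ON alpha, 4 OFF S alpha with sustained and 3 OFF T alpha with transient responses). The other 10 cells were 2 suppressed-by-contrast (SbC) cells and 1 cell each of the types PixON, local edge detector (LED), EyeWire 4i, J-RGC, OFF high speed selective, EyeWire 6sn, ON S non-alpha and EyeWire 6sw. Each cell is named by its subtype and its number from 1 to 29. No label gives the animal of a cell, so cells of a subtype may share one. Groups of cells are therefore described by their values and ranges, with no test between them. Intervals given for shares of cells count cells as if independent and are no comparison of groups.

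The sodium pump exports sodium and imports potassium at the cost of ATP, and most other transporters named here run on the gradient it makes. Calcium leaves a neuron through ATP-driven pumps and through exchangers that let sodium in. Internal chloride depends on the balance of a loader, NKCC1, and an extruder, KCC2, and it sets the direction of the current through GABA and glycine receptors. Bicarbonate transporters and sodium/proton exchangers hold the pH of the cytoplasm and of organelles.

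Signals are the linear intensities that the authors computed for each array. A gene counted as detected in a cell at a signal of 3000 or more, which is 2 times the trimmed mean of 1500 that every array shares. Of the 48 members, 11 (22.9%) were detected in at least 15 of the 29 cells, beside 10.6% of all genes. Another 14 members were detected in 3 to 14 cells and 5 in 1 or 2 cells. The remaining 18 (37.5%) were detected in no cell, beside 45% of all genes, and their highest signal anywhere was 783. The widely detected members were 3 of the 5 sodium pump genes, 6 of the 16 calcium genes, 1 of the 8 chloride genes, 1 of the 16 pH genes and none of the adaptors.

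**Figure D1:**
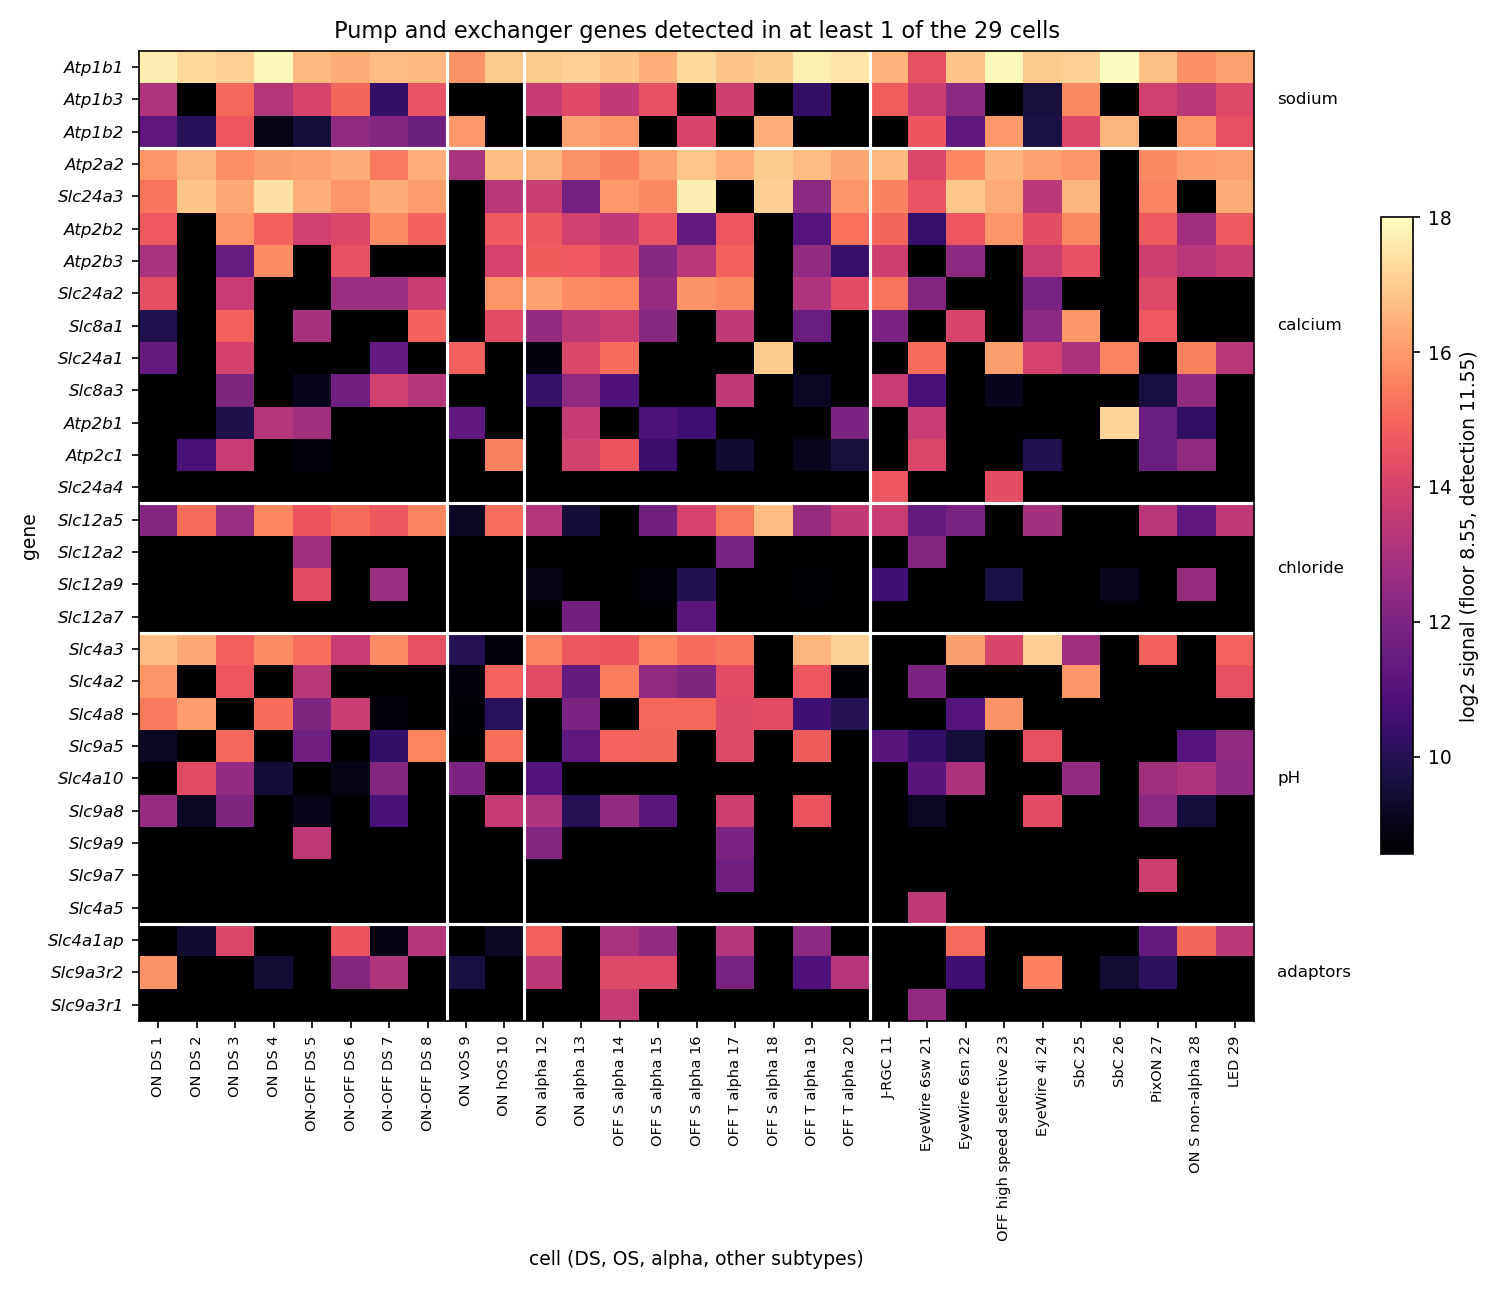
Log2 signal of the 30 members detected in at least 1 cell (rows, grouped by the ion they act on) in each of the 29 cells (columns, ordered as DS, OS, alpha and other cells, with white lines between classes). Black is at the floor of 8.55 and the detection threshold is 11.55. *Atp1b1* is bright in all 29 cells and *Atp2a2* in all but SbC 26, while most pH and chloride genes are dark in most cells.

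Of 14 RGC marker genes with a value, 11 were detected in at least 15 cells, and the number detected per cell had a median of 10 and ran from 5 to 14. It was lowest in EyeWire 6sw 21 and SbC 26, with 5 each. EyeWire 6sw 21 also had 6 of 7 cone, 5 of 9 Müller glia and 4 of 6 bipolar markers above the threshold. Of 7 vascular and microglia markers it had 2. ON S non-alpha 28 had 7 RGC, 5 cone, 6 Müller glia, 3 bipolar and 3 of 7 amacrine markers above it. The medians over the 29 cells were 3 Müller glia markers and 0 markers of each of the other kinds apart from RGC and rod genes. Among the Müller glia markers *Clu* was detected in 27 cells and *Dkk3* in 21, *Glul* and *Rlbp1* in 11 each and *Vim* in 10. *Slc1a3* and *Aqp4* were detected in 1 cell each, and *Apoe* and *Kcnj10* in none. The part of RNA of other cell types in the member signals was not tested in any cell. The number of detected genes, which stands for the depth of a library, had a median of 2908 and ran from 1182 in SbC 26 to 4201 in EyeWire 6sw 21. The number of members detected per cell had a median of 12 and ran from 4 in SbC 26 to 19 in OFF T alpha 17, and over the 29 cells it went with the number of detected genes (Pearson r = 0.78, Spearman rho = 0.78). Alpha cells had a median of 15 members and DS cells of 13, with ranges of 7 to 19 and 7 to 18 that overlap almost fully. RNA of rods differed widely between the libraries. Of 12 rod genes with a value, 6 or more were detected in 18 cells, termed rod-high here, among them 6 of 9 alpha cells, 3 of 8 DS cells, 1 of 2 OS cells and 8 of the 10 others. The remaining 11 cells are termed rod-low.

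Promoters of *Slc24a1*, *Slc12a5* and *Atp1b1* are shown because the first goes with rod RNA across the cells, the second against it, and the third was detected in every cell. Each is the RefSeq sequence from 250 bases before to 50 bases after the gene's start on its own strand (build GRCm38.p6). Such entries were found for 38 of the 48 members. Capitals mark matches, on either strand, to the letters TAATCC (core of the site of CRX, a photoreceptor factor), TGCTGA (core of the site of NRL, the rod factor) or GGGCGG (GC box).

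*Slc24a1*, chr9:64951571-64951870, minus strand: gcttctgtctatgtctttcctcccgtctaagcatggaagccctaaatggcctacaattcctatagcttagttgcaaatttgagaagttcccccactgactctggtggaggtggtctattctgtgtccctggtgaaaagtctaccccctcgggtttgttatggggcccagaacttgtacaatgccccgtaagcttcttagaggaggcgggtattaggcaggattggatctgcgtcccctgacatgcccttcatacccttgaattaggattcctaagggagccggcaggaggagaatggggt
*Slc12a5*, chr2:164960596-164960895, plus strand: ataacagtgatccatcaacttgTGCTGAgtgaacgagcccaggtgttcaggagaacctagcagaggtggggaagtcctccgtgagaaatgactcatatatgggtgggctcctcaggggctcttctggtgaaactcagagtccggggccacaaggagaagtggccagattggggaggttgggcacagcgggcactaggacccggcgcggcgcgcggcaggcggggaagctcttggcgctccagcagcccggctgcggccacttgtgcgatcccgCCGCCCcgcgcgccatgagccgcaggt
*Atp1b1*, chr1:164458306-164458605, minus strand: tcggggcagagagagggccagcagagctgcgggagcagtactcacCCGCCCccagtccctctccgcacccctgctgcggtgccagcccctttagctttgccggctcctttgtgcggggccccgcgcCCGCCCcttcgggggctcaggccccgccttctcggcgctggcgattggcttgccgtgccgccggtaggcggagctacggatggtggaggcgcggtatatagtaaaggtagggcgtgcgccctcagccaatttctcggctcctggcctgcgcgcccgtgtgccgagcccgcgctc

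The *Slc24a1* window held none of the 3 motifs, a GC content of 51% and 6 CpG dinucleotides, close to the medians of all 32851 promoters (52.7% and 7). The *Slc12a5* window held 1 TGCTGA at base 23 and 1 GC box at base 274, with 63.7% GC and 21 CpG. The *Atp1b1* window held 2 GC boxes, at bases 46 and 127, with 71% GC and 31 CpG. TAATCC occurs in 7.06%, TGCTGA in 19.5% and GGGCGG in 35.7% of all promoters of this length, and a match of letters is not evidence of a bound factor. *Slc12a5* has a further start at chr2:164967738-164968037, which held 1 GC box. *Atp1b2* is named only.

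*Atp1b1* encodes the β1 subunit, which brings the sodium pump to the membrane, and it was the only member detected in 29 of 29 cells. Its signal had a median of 127400, and ran from 84496 to 239051 in DS cells (median 123112), from 87789 to 218327 in alpha cells (median 133511) and from 22954 to 558746 in the other cells (median 114629). The 2 OS cells had 59350 and 127400. The classes overlapped throughout. The lowest signal was in EyeWire 6sw 21 and the highest in SbC 26, the cells with the most and the fewest detected genes, and over all cells r with the number of detected genes was -0.58. These values are of 1 of 5 probe sets of the gene. Another, detected in 29 cells, had r = 0.99 with it. Those detected in 24 and 25 cells had r of 0.3 and 0.22 with it and were highest in OFF high speed selective 23. *Atp1b3* (β3) was detected in 18 cells, 6 of 8 DS, 5 of 9 alpha, 7 of 10 other and neither OS cell, with detected signals from 5160 to 51500. *Atp1b2* (β2, first described as a glial adhesion molecule and also present in photoreceptors) was detected in 15 cells and is described below with rod RNA. *Atp1a4*, the α subunit of sperm, and *Atp1b4* were detected in no cell (highest signal 344), and 0 of 29 allows a share of cells of up to 11.9%.

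All 29 cells thus had at least 1 β subunit gene above the threshold. In 5 cells it was *Atp1b1* alone, 15 cells had 2 of the 3 subunits and 9 cells had all 3. The 9 cells came from 8 subtypes, which were ON DS, ON-OFF DS with 2 cells, ON alpha, OFF S alpha, EyeWire 6sw, SbC, ON S non-alpha and LED. They were 7 of the 18 rod-high and 2 of the 11 rod-low cells, and *Atp1b2* went with rod RNA.

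**Figure D2:**
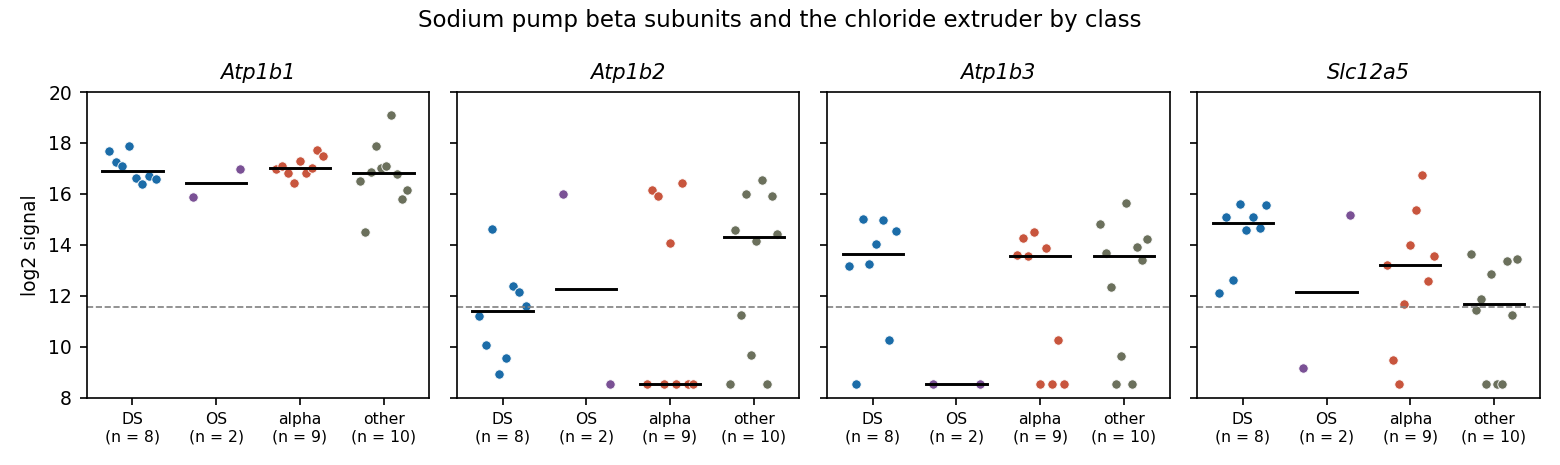
Log2 signal of the 3 sodium pump β subunit genes and of *Slc12a5* (KCC2) in each cell, by class (8 DS, 2 OS, 9 alpha and 10 other cells). Points are cells, bars are class medians and the dashed line is the detection threshold. *Atp1b1* lies above the line in every cell, *Atp1b2* splits within each class, and *Slc12a5* is above the line in all 8 DS cells.

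Of the 7 genes of the FXYD family, small proteins that tune the pump, none was detected in 15 or more cells. *Fxyd7*, the neuronal member, was detected in 8 of 8 DS cells (100%, exact 95% interval 63.1 to 100) with signals from 5366 to 127300 and a median of 51754. It was detected in 2 of 9 alpha cells (22.2%, 2.81 to 60; median signal 141), in neither OS cell and in 3 of 10 other cells. The difference of median log2 signals, DS minus alpha, was 7.11. The ranges overlapped, since the highest alpha cell had 71319. *Fxyd7* was detected in 7 of 18 rod-high and 6 of 11 rod-low cells. *Fxyd2* was detected only in SbC 26, at 132015.

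*Slc12a5* encodes KCC2, the potassium-chloride cotransporter that keeps chloride low in mature neurons, and it was the one chloride gene detected widely, in 21 of 29 cells. In DS cells its signal ran from 4490 to 50198 with a median of 30393, and all 8 were above the threshold. In alpha cells it ran from 14 to 108858 (median 9555) with 7 of 9 detected, and in the other cells from 3 to 12978 (median 3284) with 5 of 10 detected. ON hOS 10 had 37448 and ON vOS 9 had 567. The DS and alpha ranges overlapped, and the difference of medians, 1.65 log2 units, was below the 2 units taken here as a call.

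*Slc12a2* encodes NKCC1, which loads chloride. It was detected in 3 cells only, at 6972 in ON-OFF DS 5, 4424 in EyeWire 6sw 21 and 3741 in OFF T alpha 17, and its highest signal elsewhere was 237. ON-OFF DS 5 and OFF T alpha 17 had both NKCC1 and KCC2 above the threshold. Neither was detected in 7 cells, which were ON vOS 9, ON alpha 13, OFF S alpha 14, OFF high speed selective 23, SbC 25, SbC 26 and ON S non-alpha 28. All 7 were rod-high.

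*Slc12a9*, a family member with no settled transport activity, was detected in ON-OFF DS 5 (20244), ON-OFF DS 7 (6370) and ON S non-alpha 28 (6146). A further probe set of it reached 79134 in ON DS 2, where the one used here was at 62. *Slc12a7* (KCC4) was detected in ON alpha 13 alone, at 3327. The renal cotransporter genes *Slc12a1* and *Slc12a3*, and *Slc12a4* and *Slc12a8*, were detected in no cell. Of 8 genes for regulators of these cotransporters, 4 were detected in at least 15 cells. They were the kinase genes *Wnk1* (25 cells), *Wnk2* (16) and *Stk39* (19, which encodes SPAK), and *Ckb* (29), a creatine kinase that binds KCC2.

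Calcium genes formed the largest detected set. *Atp2a2* encodes SERCA2, the pump that fills the endoplasmic reticulum with calcium, and it was detected in 28 cells, all but SbC 26 (145). Its signal ran from 41828 to 95873 in DS cells (median 70971), from 48454 to 134288 in alpha cells (median 85117), and was 8203 in ON vOS 9 and 106470 in ON hOS 10. In the other cells apart from SbC 26 it ran from 17429 to 99788. The muscle and blood cell isoform genes *Atp2a1* and *Atp2a3* were detected in no cell, nor were *Pln* and *Sln*, which encode small inhibitors of SERCA.

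Of the plasma membrane calcium pumps, *Atp2b2* (PMCA2) was detected in 22 cells and *Atp2b3* (PMCA3) in 18, the isoforms that are mostly neuronal. *Atp2b1* (PMCA1) was detected in 7 and *Atp2b4* in none. The *Atp2b2* signal ran from 94 to 61905 in DS cells (median 28874, 7 of 8 detected), from 14 to 38028 in alpha cells (median 15276, 6 of 9) and from 145 to 61704 in the other cells (median 26269, 8 of 10). The OS cells had 231 in ON vOS 9 and 27606 in ON hOS 10. The classes overlapped, and within each class a few cells lay far below the rest. *Atp2b3* was detected in 3 of 8 DS cells (37.5%, 8.52 to 75.5) and in 7 of 9 alpha cells (77.8%, 40 to 97.2). *Atp2b1* was at its highest in SbC 26, at 152670, and its other detected signals lay between 3045 and 13064.

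Read together, 13 cells had *Atp2b2* and *Atp2b3* without *Atp2b1*, 4 had *Atp2b2* alone, and ON DS 4, ON alpha 13 and PixON 27 had all 3. No plasma membrane pump gene was detected in ON DS 2, ON vOS 9 and OFF S alpha 18. The signals of *Atp2b2* in these 3 cells were 94, 231 and 14, and those of *Atp2b3* were 133, 36 and 2.

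**Figure D3:**
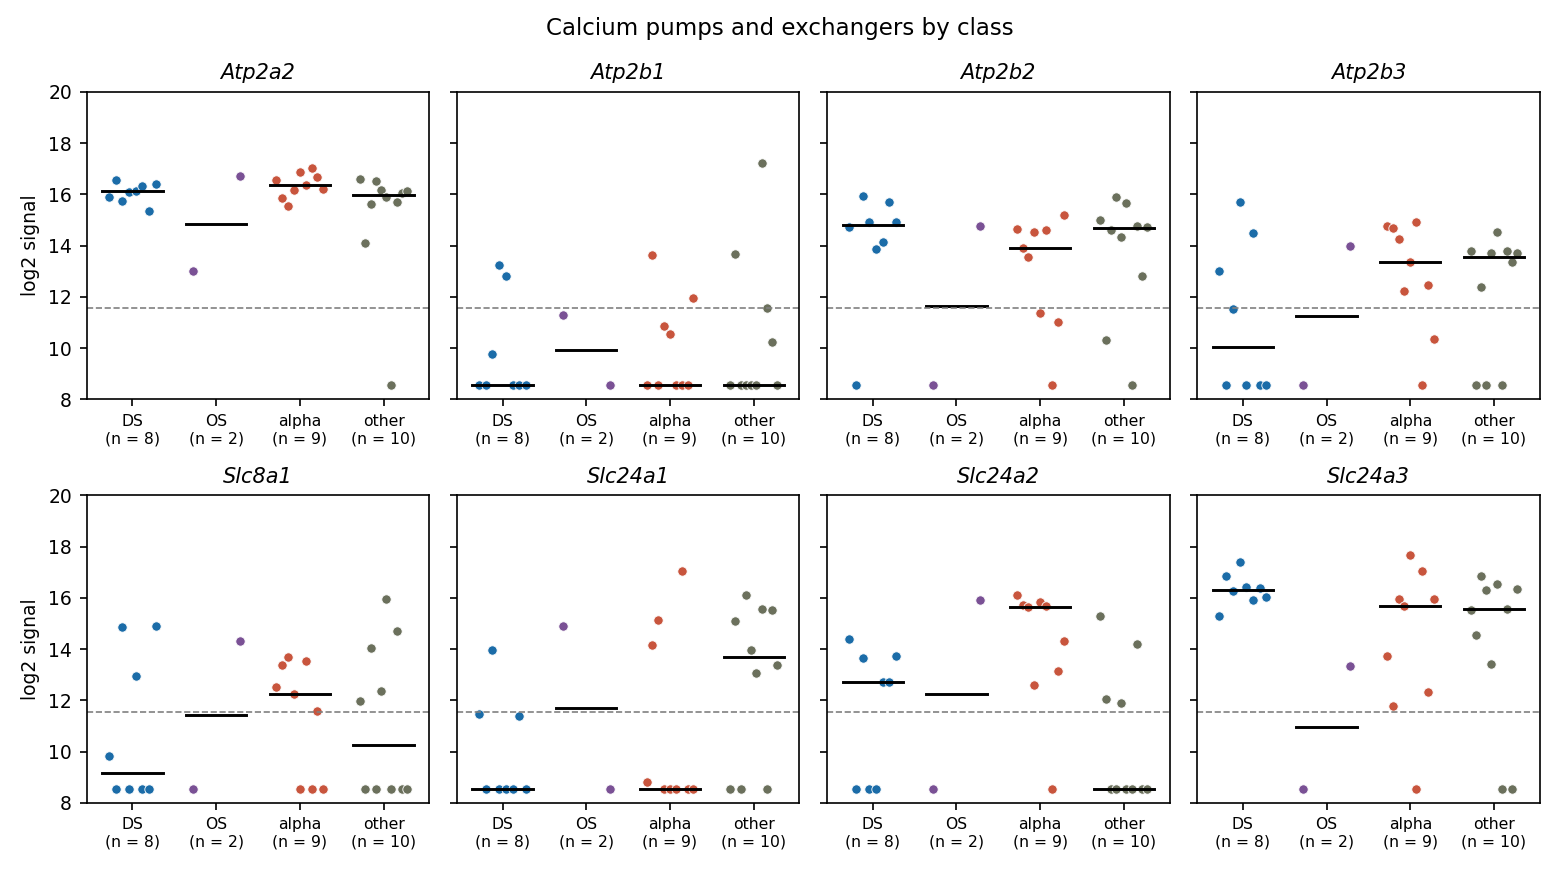
Log2 signal of 8 calcium pump and exchanger genes in each cell, by class. Points are cells, bars are class medians and the dashed line is the detection threshold at 11.55. *Atp2a2* is high in all classes, *Slc24a2* and *Atp2b3* have higher medians in alpha than in DS cells, and all 8 DS cells are high in *Slc24a3*.

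The potassium-dependent sodium/calcium exchangers (NCKX) were the exchangers found most widely, and all 29 cells had at least 1 of them. In ON vOS 9, SbC 26 and ON S non-alpha 28 the only NCKX gene detected was *Slc24a1* (30318, 48551 and 47728). These cells were rod-high, and *Slc24a1* is described below with rod RNA. *Slc24a3* (NCKX3, found in brain neurons) was detected in 25 cells. All 8 DS cells had it, from 39856 to 175182 with a median of 81779, and 8 of 9 alpha cells had it, with a range over all 9 from 30 to 208913 and a median of 52621. The other cells ran from 86 to 119720 (median 48241), and the OS cells had 11 in ON vOS 9 and 10266 in ON hOS 10. The DS cells lay within the range of the alpha cells. *Slc24a2* (NCKX2, the exchanger of cones and of many neurons) was detected in 18 cells, 8 of 9 alpha (88.9%, 51.8 to 99.7), 5 of 8 DS (62.5%, 24.5 to 91.5), 1 of 2 OS and 4 of 10 other cells. *Slc24a4* was detected in J-RGC 11 (25067) and OFF high speed selective 23 (20862), and did not exceed 314 elsewhere. Across the 29 cells 8 had 1 NCKX gene, 14 had 2 and 7 had 3.

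The sodium/calcium exchangers that need no potassium (NCX) were less often detected. *Slc8a1* (NCX1) was above the threshold in 15 cells and *Slc8a3* (NCX3) in 8, and *Slc8a2* in none. The highest *Slc8a1* signal was 62739 in SbC 25 and the highest *Slc8a3* signal 15119 in ON-OFF DS 7. Neither was detected in 11 cells, and both were in ON DS 3, ON-OFF DS 8, J-RGC 11, ON alpha 13 and OFF T alpha 17. Counting pumps of the plasma membrane and all exchangers together, 26 cells had both kinds and 3 had exchangers only, the 3 cells without a pump gene named above. In ON vOS 9 and SbC 26 the only exchanger gene detected was *Slc24a1*, which went with rod RNA. Apart from *Slc24a1*, ON vOS 9 had neither a plasma membrane pump gene nor an exchanger gene above the threshold.

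*Atp2c1*, the calcium and manganese pump of the Golgi, was detected in 7 cells, and in 11 when any of its probe sets counted. The highest signal was 47190, in ON hOS 10. Of 8 partner genes of calcium pumps and stores with a value, 3 were detected in at least 15 cells. *Bsg* was detected in 29 cells and *Nptn* in 18, and both encode membrane proteins that associate with the plasma membrane pumps. *Letm1*, a mitochondrial inner membrane protein, was detected in 22.

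Of the pH genes, *Slc4a3* (AE3, the chloride/bicarbonate exchanger of neurons and heart) was detected in 22 cells and no other in more than 13. It ran from 12851 to 108443 in the 8 DS cells (median 45668), all detected, and from 46 to 145813 in the 9 alpha cells (median 40601), 8 detected. In the other cells it ran from 92 to 136835 (median 12167, 6 of 10 detected). The OS cells, at 1037 and 420, were both below the threshold, and so were J-RGC 11, EyeWire 6sw 21, SbC 26 and ON S non-alpha 28. *Slc4a2* (AE2, the widespread exchanger of the same kind) was detected in 13 cells, with a highest signal of 63200 in SbC 25.

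The sodium-driven bicarbonate transporter genes were each detected in a minority of the cells. *Slc4a8* (NDCBE) was detected in 5 of 9 alpha cells, 5 of 8 DS cells and 1 of the 10 others, and reached 68632 in ON DS 2. *Slc4a10* (NCBE) was detected in 9 cells, which were 3 of 8 DS (37.5%, 8.52 to 75.5), 0 of 9 alpha (0%, 0 to 33.6), ON vOS 9 and 5 of 10 other cells. The highest *Slc4a10* signal in an alpha cell was 2020, in ON alpha 12, and the highest of all was 20096, in ON DS 2. In the other class its detected signals lay between 5334 and 8772. *Slc4a4* (NBCe1, which Müller glia carry) was detected in no cell, with a highest signal of 515.

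Sodium/proton exchangers were sparse. *Slc9a5* (NHE5, a neuronal form) was detected in 10 cells and *Slc9a8* (NHE8, of the Golgi) in 9, *Slc9a9* in 3 and *Slc9a7* in 2. In 16 cells none of the 7 exchanger genes with a value was detected, and OFF T alpha 17, the cell with the most members, had 4. Of the 9 bicarbonate transporter genes with a value, J-RGC 11 and SbC 26 had none at the probe sets used and no cell had more than 3. A further probe set of *Slc4a8* read 22840 in J-RGC 11, where the one used was at 24. Of the 3 adaptor genes, *Slc4a1ap* was detected in 11 cells, *Slc9a3r2* in 9 and *Slc9a3r1* in 2. Of 11 pH partner genes with a value, mostly carbonic anhydrases, none was detected in 15 cells. *Car11*, which encodes a protein related to them without catalytic activity, was detected in 13 cells and *Car2* in 8.

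**Figure D4:**
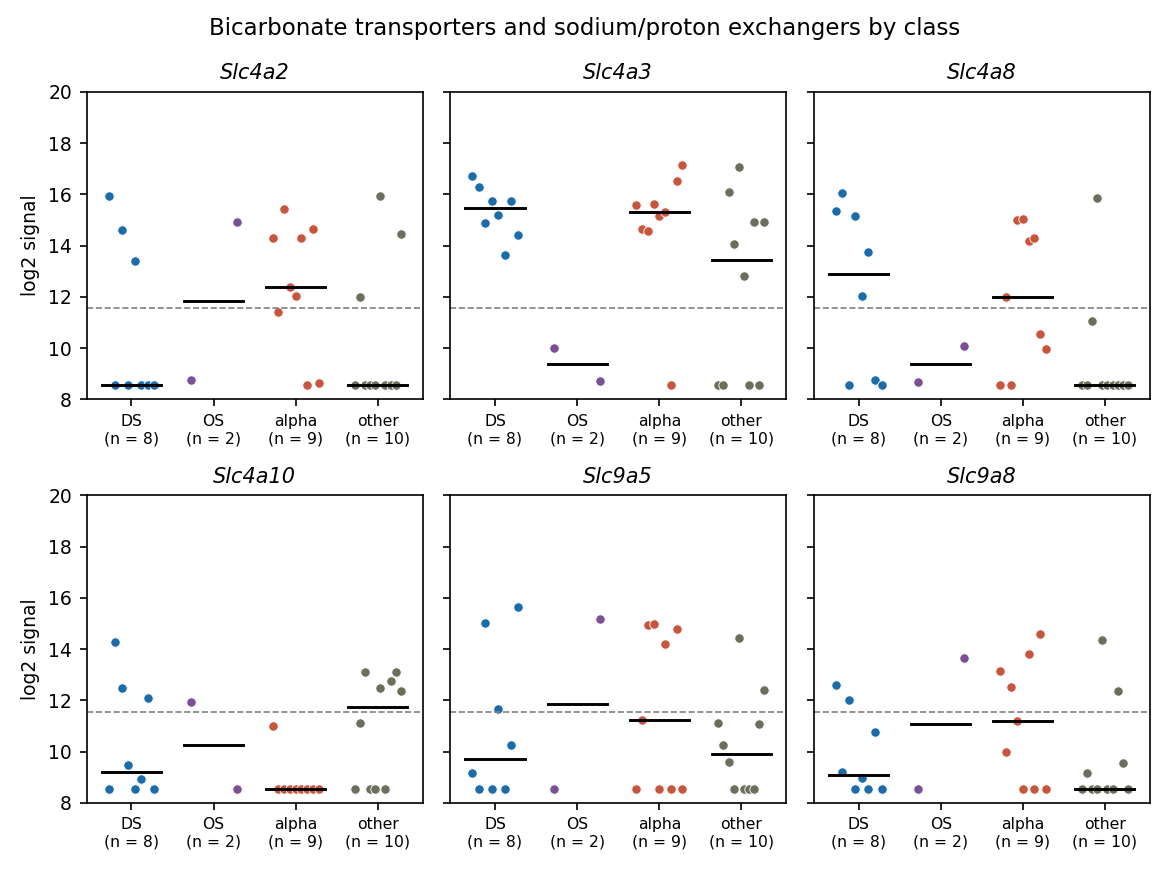
Log2 signal of 4 bicarbonate transporter genes and 2 sodium/proton exchanger genes in each cell, by class, drawn as in the plot of calcium genes. *Slc4a3* is above the dashed detection line in all 8 DS cells and in 8 of 9 alpha cells, and *Slc4a10* is below it in all 9 alpha cells.

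DS and alpha cells were compared by the difference of their median log2 signals, with a floor of 375 under the signals and a call at 2 units, over the 25 members and the 7113 genes detected in at least 3 cells. Class medians printed beside these differences are medians of the linear signals. With 8 DS cells a median is the midpoint of the middle pair on its own scale, so the printed medians do not give the differences exactly. In favour of alpha cells 7 members (28%) passed this size, beside 11.6% of all genes, and 1 member (4%) was higher in DS cells, beside 7.07%. The median difference was 0.00 over the 25 members and over all genes. No member separated the 8 DS from the 9 alpha cells without overlap, and 0.0281% of all genes did so.

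The calcium genes higher in alpha cells were *Slc24a2*, *Atp2b3* and *Slc8a1*. The *Slc24a2* signal ran from 7 to 21566 in DS cells (median 6702) and from 2 to 71378 in alpha cells (median 50625), a difference, DS minus alpha, of -2.92. 5 of the 9 alpha cells, from 50625 up, lay above every DS cell. *Atp2b3* ran from 3 to 53995 in DS cells (median 1540) and from 2 to 31233 in alpha cells (median 10445), a difference of -3.31. *Slc8a1* ran from 14 to 30627 in DS cells (median 507) and from 2 to 13434 in alpha cells (median 4874), a difference of -3.07. For the latter pair the highest DS cell lay above every alpha cell, so that the difference is one of medians and of the number of cells detected.

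The remaining alpha-side members were *Slc4a2* (-3.85), the Golgi exchanger *Slc9a8* (-2.12) and the adaptors *Slc4a1ap* (-3.23) and *Slc9a3r2* (-2.86). *Slc4a2* was detected in 3 of 8 DS and 6 of 9 alpha cells, with medians of 102 and 5420. The rod-high cells were unequally shared between the classes, and in the 5 DS and 3 alpha cells that were rod-low all 7 kept their direction, with larger differences (-7.12 for *Slc24a2*, -6.21 for *Atp2b3*, -4.61 for *Slc9a8*). Leaving out 1 cell at a time took *Atp2b3* to -1.83 (without ON DS 2, ON-OFF DS 5, ON-OFF DS 7 or ON-OFF DS 8), *Slc9a8* to -1.52 (without ON alpha 12, OFF S alpha 14, OFF T alpha 17 or OFF T alpha 19) and *Slc4a1ap* to -1.32 (without ON alpha 12, OFF S alpha 14, OFF S alpha 15 or OFF T alpha 17) or -1.38 (without OFF T alpha 19).

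The one member higher in DS cells was *Atp1b2*, with medians of 2756 in DS and 284 in alpha cells and a difference of 2.86. Its highest signals were in alpha cells all the same, with 88524 in OFF S alpha 18 against 25126 in the highest DS cell. Without ON alpha 12, OFF S alpha 15, OFF T alpha 17, OFF T alpha 19 or OFF T alpha 20 the difference was 0.10. It was 1.51 without the rod-high cells and 0.86 with a floor of 1500, both below the call. The count of members higher in DS cells was 2 without ON DS 1, ON DS 2, ON DS 4 or ON-OFF DS 5. Of the 7 members on the alpha side 2 passed the call with a floor of 1500, *Slc24a2* (-2.92) and *Atp2b3* (-2.31). The other 5 were then at -1.82 (*Slc4a1ap*), -1.85 (*Slc4a2*), -1.70 (*Slc8a1*), -1.29 (*Slc9a3r2*) and -0.65 (*Slc9a8*). Quantile normalization took *Slc9a3r2* to -0.58, *Slc4a1ap* to -1.60 and *Slc9a8* to -1.71. With the mean of all probe sets of a gene *Slc24a2* (-1.46) and *Atp2b3* (-1.0) were below the call. *Slc8a1* was then at -0.77, *Slc9a8* at -0.53 and *Atp1b2* at 1.43.

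ON and ON-OFF DS cells, with 4 cells each, were compared in the same way. *Atp1b1* was the 1 member of 25 (4%) whose groups did not overlap, beside 2.09% of all genes. Its signals were 209323, 158317, 139796 and 239051 in ON DS cells and 100373, 84496, 106429 and 99609 in ON-OFF DS cells, a difference, ON-OFF minus ON, of -0.86 log2 units, which is below the size of a call. All 4 ON DS cells lay above all 4 ON-OFF DS cells. This separation is given for the probe set used, 1 of 5 of the gene, with which those detected in 24 and 25 cells went weakly. The numbers of detected genes, with which the *Atp1b1* signal had the r of -0.58 given above, were 3107, 1842, 2833 and 2147 in the same ON DS cells and 3104, 3333, 3591 and 2748 in the ON-OFF DS cells. The part of depth in this difference was not tested.

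Past 2 units, 4 members (16%) were higher in ON-OFF DS cells, beside 21.2% of all genes, and 4 (16%) in ON DS cells, beside 8.06%. *Slc8a3* showed the largest difference towards ON-OFF DS cells, 3.91, with signals of 534, 3290, 15119 and 9665 there and of 69, 22, 4128 and 26 in ON DS cells. It was detected in 3 of the 4 ON-OFF DS cells and in ON DS 3 alone among the others. Over all cells the *Slc8a3* signal had r = 0.57 with the number of detected genes. The part of depth in its difference, and in the other differences between these groups, was not tested. *Slc12a9* (2.04), *Slc9a5* (2.10) and *Slc4a1ap* (2.11) lay just past the call. In the opposite direction *Slc4a8* had 42063, 68632, 116 and 36285 in ON DS cells and 4211, 13658, 436 and 107 in ON-OFF DS cells, a difference of -4.85. *Atp2b3* had 8144, 133, 2946 and 53995 in ON DS cells and 3, 23374, 11 and 6 in ON-OFF DS cells, a difference of -3.71. Both sets overlapped in range, through ON DS 3 for *Slc4a8* and ON-OFF DS 6 for *Atp2b3*. The mean of all probe sets gave 1.96 for *Slc8a3*, -1.06 for *Slc4a8* and -0.57 for *Atp2b3*, all below the call, and a floor of 1500 gave 1.91 for *Slc8a3* and -1.71 for *Atp2b3*. A further probe set of *Atp2b3* read 13153 in ON-OFF DS 8, where the one used was at 6.

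The sodium-driven transporter *Slc4a10* (-2.25) and the exchanger *Slc4a2* (-3.03) were also higher in ON DS cells, and each rested on single cells. *Slc4a10* was at 13, 20096, 5809 and 714 in ON DS cells and at 157, 491, 4352 and 88 in ON-OFF DS cells, and the difference was -0.74 without ON DS 2 or ON DS 3. *Slc4a2* was at 62209, 10, 25084 and 29 in ON DS cells and at 10859, 49, 4 and 155 in ON-OFF DS cells, and the difference was 0.00 without ON DS 1 or ON DS 3. *Slc12a9* went to 0.00 without ON-OFF DS 5 or ON-OFF DS 7. *Slc9a5* went to 1.41 without ON-OFF DS 5 or ON-OFF DS 8 and to 1.79 without ON DS 2 or ON DS 4. *Slc4a1ap* went to -0.09 without ON-OFF DS 6 or ON-OFF DS 8 and to 1.69 without ON DS 1 or ON DS 4. The floor of 1500 took *Slc12a9* to 1.04, *Slc9a5* to 0.56, *Slc4a1ap* to 1.36 and *Slc4a10* to -0.98. The mean of all probe sets took *Slc12a9* to 1.02 and *Slc9a5* to 1.05. Quantile normalization took *Slc12a9* and *Slc9a5* to 1.57 and *Slc4a1ap* to 0.13, and without the rod-high cells *Slc12a9* and *Slc4a2* were at 0.00. The count of members higher in ON DS cells was 2 without ON DS 3 and 7 without ON DS 4.

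OFF T alpha cells (3) and OFF S alpha cells (4) differed past 2 units in 4 members (16%) towards OFF T, beside 25.1% of all genes, and in 4 (16%) towards OFF S, beside 8.77%. No member separated them without overlap, and 4.39% of all genes did. All 4 OFF S alpha cells were rod-high, against 1 of the 3 OFF T alpha cells (OFF T alpha 19), so that rod RNA and this contrast cannot be told apart. The members higher in OFF S cells were *Atp1b2* (-6.44, OFF T minus OFF S), *Slc24a3* (-4.18), *Slc4a8* (-4.08) and *Slc24a1* (-3.29). *Atp1b2* was at 61463, 109, 17323 and 88524 in OFF S cells and at 284, 21 and 131 in OFF T cells. *Slc24a3* was at 64234, 52621, 208913 and 137080 in OFF S cells and at 30, 5182 and 63393 in OFF T cells, where the highest OFF T cell exceeded 1 OFF S cell. *Slc24a1* was at 35654, 72, 13 and 135092 in OFF S cells and at 2, 204 and 15 in OFF T cells, and its difference was 0.00 without OFF S alpha 14 or OFF S alpha 18.

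Higher in OFF T cells were *Slc9a8* (3.92), *Slc9a5* (2.47), *Atp2b2* (2.17) and *Slc4a2* (2.06), all with overlapping ranges. *Slc9a8* was at 14245, 24678 and 10 in OFF T cells and at 5836, 2358, 29 and 5 in OFF S cells, and went to 1.69 without OFF T alpha 17 and 1.30 without OFF T alpha 19. *Atp2b2* was at 25350, 2091 and 38028 in OFF T cells and at 12043, 23954, 2621 and 14 in OFF S cells. Its difference was 0.67 without OFF T alpha 17, 0.37 without OFF T alpha 20 and 1.07 without OFF S alpha 16 or OFF S alpha 18. *Slc4a2* changed sign without OFF T alpha 17 (-0.58) or OFF T alpha 19 (-0.76), and was 1.87 without OFF S alpha 16 or OFF S alpha 18. *Slc9a5* changed sign without OFF T alpha 17 (-0.09), OFF T alpha 19 (-0.36), and OFF S alpha 16 or OFF S alpha 18 (-0.73). The count of members higher in OFF T cells was 0 without OFF T alpha 17, 2 without OFF T alpha 19, 1 without OFF S alpha 16 or OFF S alpha 18, and 7 without OFF S alpha 14 or OFF S alpha 15. With the mean of all probe sets *Slc4a8* was at -0.61, *Slc9a8* at 0.96, *Atp2b2* at 0.72 and *Slc9a5* at 1.23. Quantile normalization took *Atp2b2* to 1.88 and *Slc4a2* to 1.81, and the floor of 1500 took *Slc9a5* to 1.47.

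The relation of the members to rod RNA was described by Pearson r between a member's log2 signal and the log2 signal of the 12 rod genes, averaged in each of the 29 cells, which share their library within each cell. Of the 25 members detected in at least 3 cells, 2 (8%) had r of at least 0.5, beside 3.12% of all genes, and 1 (4%) had r of -0.5 or below, beside 2.02%. *Slc24a1* encodes NCKX1, the exchanger that clears calcium from the rod outer segment, and had r = 0.87 (rho = 0.86), which was 0.86 when the 2 cells farthest from the median rod signal were left out. It had rank 27 of 7113 genes. It was detected in 12 of 18 rod-high cells (66.7%, 41 to 86.7) at a median of 15991 and in 0 of 11 rod-low cells (0%, 0 to 28.5), where its highest signal was 456. The highest signals were 135092 in OFF S alpha 18, 70047 in OFF high speed selective 23 and 48551 in SbC 26.

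*Atp1b2* had r = 0.82 (rho = 0.81) and was detected in 13 of 18 rod-high cells (72.2%, 46.5 to 90.3) and in 2 of 11 rod-low cells (18.2%, 2.28 to 51.8), the latter being ON-OFF DS 6 (5359) and ON-OFF DS 8 (3134). *Atp1b2* and *Slc24a1* went together over the 29 cells (r = 0.85), with both detected in 11 cells and neither in 13, and r was 0.81 within the 18 rod-high and -0.26 within the 11 rod-low cells. The part of rod RNA in the signals of these genes was not tested.

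*Slc12a5* went the other way, with r = -0.62 (rho = -0.58), or -0.59 when the same 2 cells were left out. A negative r was not particular to it. The RGC markers with a value had r from -0.70 (*Rbpms*) to -0.01 (*Gap43*), with -0.45 for *Thy1* and -0.22 for *Sncg*. *Slc12a5* was detected in 11 of 11 rod-low cells (100%, 71.5 to 100), from 3785 to 50198 with a median of 34987. Of the rod-high cells 10 of 18 had it (55.6%, 30.8 to 78.5), with a range over all 18 from 3 to 108858 and a median of 3893. The ranges overlapped, and the highest *Slc12a5* signal of all was in a rod-high cell, OFF S alpha 18. The 5 rod-low DS cells and the 3 rod-high DS cells were all above the threshold, with the lowest DS signals, 4490 and 6314, in the rod-high cells ON DS 1 and ON DS 3. Within the 11 rod-low cells r was 0.36 for *Slc12a5*, 0.39 for *Atp1b2* and -0.13 for *Slc24a1*. The 18 rod-high cells alone, a subset added once the data had been seen, gave -0.39 for *Slc12a5*, 0.90 for *Atp1b2* and 0.82 for *Slc24a1*.

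**Figure D5:**
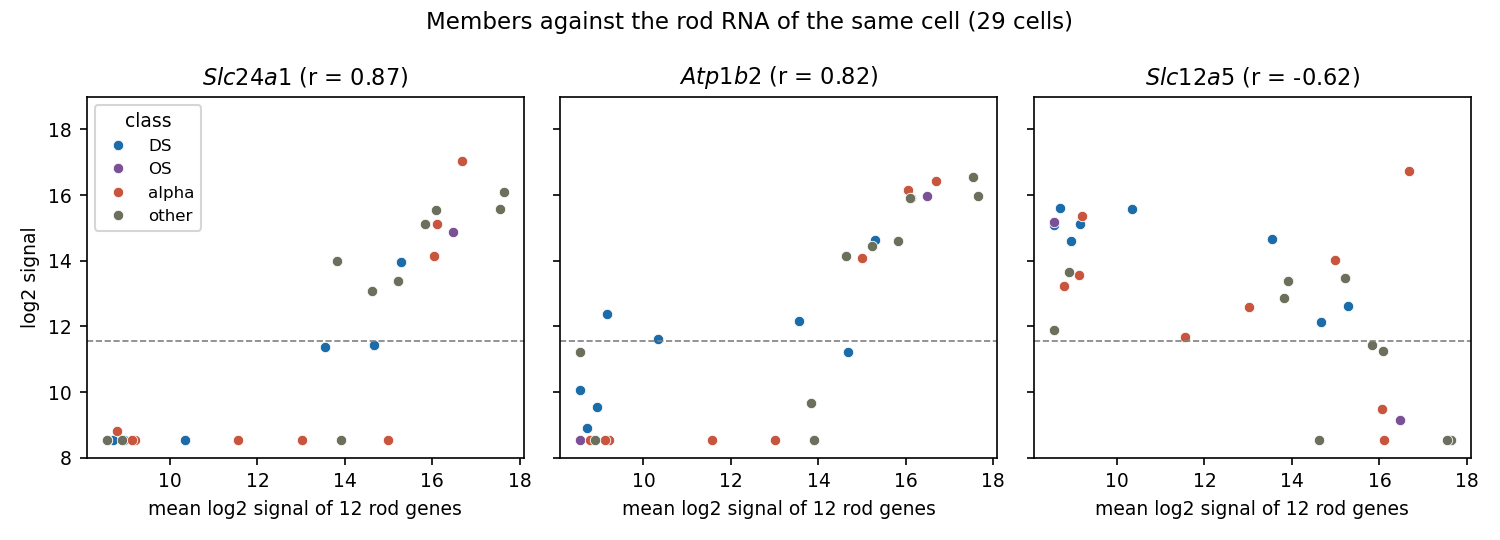
Log2 signal of *Slc24a1*, *Atp1b2* and *Slc12a5* (vertical) against the log2 signal averaged over 12 rod genes (horizontal) in each of the 29 cells, coloured by class, with the detection threshold dashed. Most cells lie in a rod-poor set on the left or a rod-rich set on the right, with few between. *Slc24a1* is above the line only on the right, and *Slc12a5* is above the line in all 11 rod-low cells.

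Other pairs of members had weaker relations over the 29 cells. *Slc24a2* and *Slc9a8* had r = 0.56, and each of the 9 cells with *Slc9a8* also had *Slc24a2*, while r was 0.41 with the number of detected genes held constant. *Slc9a5* and *Slc9a8* had r = 0.56 as well and were detected together in 6 cells. *Atp2a2* and *Atp2b1* had r = -0.69, which was -0.41 without SbC 26, the cell with the highest *Atp2b1* and the lowest *Atp2a2* signal. *Atp2a2* and *Slc12a5* had r = 0.51 and 0.48 without that cell.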

How the data were processed

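Libraries of 29 single RGCs were measured on 1 Affymetrix Mouse 430 2.0 array each. Per the labels and the methods, oligo(dT)-primed cDNA was tailed and amplified by PCR, so that probe sets near the 3' end are read best. The authors computed the deposited intensity values with MAS5 (version not given in the sources used here), linear signals of 45101 probe sets from 0.14 to 2096650. MAS5 detection calls were not used. Probe sets of several genes (932) or with no gene name (9211) were left out, 1 of a member among them (*Slc9a7* with another gene), which left 34958 probe sets of 18194 genes and 109 of the 48 members. Among the probe sets of a gene the one with the highest mean over the log2 signals was used, and levels were not compared between genes. Some genes of these families are not reported here. The detection threshold was 3000 and the floor under log2 signals 375. Intervals of shares are Clopper-Pearson intervals (exact, 95%). They cover counting error only, as if cells were independent. Cells may share an animal and the number of animals is not given, so the intervals do not measure the spread between animals. No 2 arrays were duplicates (r from 0.15 to 0.58 over the 406 pairs of cells).

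The rule for naming genes took members detected in at least 20 cells, members called in 1 of the 3 comparisons, members detected in all cells of a subtype of at least 3 cells and in under 50% of the other cells (none met this), and the main transporters of each ion. Further members were named after their values were seen. The members and lists were chosen with earlier results of these data known. The design fixed no test, because a group of cells from unnamed animals counts as 1 sample. Alternatives were thresholds of 1500 and 6000, any probe set, the mean of all probe sets, floors of 1500 and of 1, quantile normalization, a call at 1 log2 unit, rank and partial correlation, and leaving out each cell, the 18 rod-high cells or SbC 26, in which fewer than 50% of the median count of genes were detected. The code for differences of medians, correlations and the choice of probe set was checked on shuffled or made-up values with built-in effects. That check did not cover detection or the rate of calls. The software was pandas 2.3.3, numpy 2.4.6 and scipy 1.17.1 under Python 3.11.15, with matplotlib 3.10.9 for the figures.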

Additional observations from a re-analysis of the deposited data

Results flagged for a closer look

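In the subtypes of 4 cells, 3 values lay far from the other 3 cells of their subtype. *Atp2b2* had a signal of 94 in ON DS 2, where the other ON DS cells had 26775 to 61905. *Atp2b3* had 23374 in ON-OFF DS 6, where the other ON-OFF DS cells had 3 to 11 at the probe set used. A further *Atp2b3* probe set read 13153 in ON-OFF DS 8, so that the gap holds for the probe set used. *Slc4a3* had 46 in OFF S alpha 18, where the other OFF S alpha cells had 24374 to 50620. These were 3 of 33 groups checked (11 members in 3 subtypes), each by the gap of the highest or lowest cell to the nearest other over the range of the 4 log2 signals, against Dixon's 95% critical value. That value marks about 1 in 20 groups by chance where values are normally distributed, which floored signals are not. For *Atp2b3* the other ON-OFF DS cells were all at the floor. Its gap therefore equalled its range, and the flag followed from the floor. ON DS 2 and OFF S alpha 18 had 7 members detected each, the lowest number of their classes.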

How the results depend on the processing

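The number of members detected in at least 50% of the cells used lay between 9 and 11 under every alternative run for it. The median number per cell lay between 10 and 14 under other thresholds and with any probe set counted, the alternatives run for it. The counts of the 3 comparisons moved more. Members higher in DS than in alpha cells (1) were 0 with a floor of 1500 or the mean of all probe sets, 2 with no floor beyond 1, with quantile normalization or without the rod-high cells, 3 at a call of 1 unit, and 0 to 2 leaving out 1 cell. Members higher in alpha cells (7) were 2 with the floor of 1500, 3 with the mean of all probe sets and 4 with quantile normalization. Members higher in ON-OFF DS cells (4) were 0 with the floor of 1500, 1 with the mean of all probe sets or quantile normalization, 10 at 1 unit and 8 without the rod-high cells. Members higher in ON DS cells (4) were 2 with the floor of 1500 or the mean of all probe sets, 8 with no floor or at 1 unit, and 2 to 7 leaving out 1 cell. Members higher in OFF T alpha cells (4) were 10 with no floor, 1 with the mean of all probe sets, 2 with quantile normalization, 7 at 1 unit, and 0 to 7 leaving out 1 cell. Members higher in OFF S alpha cells (4) were 3 to 6 over the alternatives. Members with r of at least 0.5 to rod RNA (2) were 1, and with r of -0.5 or below (1) were 0, without the rod-high cells, and the latter were 2 with quantile normalization and 3 within the rod-high cells, an alternative chosen after seeing the data. The cause was not tested.

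Differences that changed sign were those of *Slc4a1ap* (ON-OFF minus ON DS, -0.09 to 4.30 leaving out 1 cell), *Slc4a2* (OFF T minus OFF S, -0.76 to 2.25) and *Slc9a5* (OFF T minus OFF S, -0.73 to 5.66). Without the rod-high cells r with rod RNA was 0.36 for *Slc12a5* and -0.13 for *Slc24a1*. The latter cannot be read as a change of sign, because *Slc24a1* was then above the floor in ON alpha 12 alone. The OFF T and OFF S comparison gave no value without the rod-high cells, because all 4 OFF S cells are rod-high. The cell with few detected genes, SbC 26, is in none of the 3 comparisons. A signal below the threshold in 1 cell does not show that the transcript is absent.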
